A study of Mus musculus with 9 samples.

Results

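The cytosolic ribosomal proteins are the protein parts of the 40S and 60S subunits that read mRNA and join amino acids in the cytoplasm. Their genes were taken by symbol: every row whose Ensembl identifier maps to an Rps or Rpl symbol followed only by a number, with a or x where it applies, plus Rplp0, Rplp1, Rplp2 and Rpsa. This gave 76 genes of 52661 rows, 30 of the small and 46 of the large subunit. All 76 were tested among 18408 genes with enough counts, and the lowest count of any of them in any library was 591. The rule used no measured value.

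RNA was sequenced from mouse embryonic fibroblasts of the C57BL/6 strain, which had been immortalised with T/t antigen in all groups and were grown in a medium with N2 supplement, EGF and FGF-2. There were 3 groups of 3 libraries: wild type cells, Ctr1 -/- cells, and Ctr1 -/- cells given bathocuproine disulfonic acid (BCS), an extracellular copper chelator, at 500 uM for 48 hours. The series record gives this dose in mM. Ctr1 is the copper importer encoded by Slc31a1, and the series compares cells with normal and depleted copper. The titles of the Ctr1 -/- libraries carry the name FloxedCtr1; how the allele was recombined, and whether a group was 1 clone or several cultures, is not given in the sources used here. The p-values therefore measure the spread between these libraries, which may be technical.

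Ribosomal proteins are needed in equal numbers, 1 copy of nearly every one per ribosome, and proteins left over are destroyed. Most of their mRNAs begin with a run of pyrimidines, the terminal oligopyrimidine tract, through which mTORC1 and the RNA-binding protein LARP1 set their translation and stability together. The mouse genome also carries many reverse-transcribed copies of these short, abundant mRNAs, many with an unchanged coding sequence.

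The targeted gene checked the labels. Slc31a1 stood at 56.1, 54.8 and 54.9 CPM (counts per 1e6 counts, with totals scaled by edgeR's TMM) in wild type libraries 1 to 3, 2.54, 3.88 and 1.40 in Ctr1-null and 3.24, 2.54 and 1.69 in Ctr1-null with BCS. Library totals ran from 38962036 to 57206337 counts. Wild type library 1 stood apart from the other 2. With it, 2 of 18408 genes tested were called between Ctr1-null and wild type, counting either direction. Without it, 1517 of 18835 genes tested were called in the lower direction alone, so results on wild type are also given without it. Of 10 fibroblast markers Fn1, Vim, Col1a1 and Col1a2 were abundant, but Thy1, Dcn and Lum were each under 1 CPM on average in every group. Summed fibroblast markers were at 15079 CPM or more in every library. Summed markers of macrophages and blood, led by Cd68, stood at 5.60 to 12.5 CPM in wild type, 9.34 to 17.6 in Ctr1-null and 12.4 to 22.0 with BCS. Summed neural markers, led by Nes, stood at 162 to 255 CPM in wild type, 182 to 214 in Ctr1-null and 132 to 157 with BCS, and fat markers, led by Pparg, at 23.7 to 27.5, 56.5 to 83.9 and 64.8 to 76.7 CPM; their part in the results was not tested. Summed epithelial markers stood at 165 to 193, 151 to 197 and 128 to 164 CPM in the 3 groups, nearly all of it Krt19, and endothelial ones at 18.3 to 25.1, 16.3 to 29.2 and 11.4 to 20.1 CPM, nearly all of it Kdr. Epcam, Cdh1, Ptprc, Cdh5, Myod1 and Pou5f1, which define other cell types, were each under 0.5 CPM in every group mean. Some other markers were higher. Krt18 averaged 5.75, 2.34 and 1.81 CPM in the 3 groups, Cd68 7.45, 12.9 and 16.3, and Sox2 17.3, 19.5 and 13.2. Tubb3 averaged 8.64, 13.1 and 12.4 CPM, and Csf1r 0.337, 0.957 and 0.863. Pecam1 stood at 2.68 CPM in BCS library 1 and at 0.409 CPM or less in the others. Summed muscle markers stood at 3.87 to 4.13, 4.50 to 7.64 and 5.74 to 10.95 CPM in the 3 groups. Among them Des averaged 0.82, 2.67 and 5.31 CPM. It was called higher in BCS against wild type (log2 fold change 2.68 ± 0.47, adjusted p from edgeR 0.00952). Acta1 averaged 3.18, 3.44 and 2.78 CPM and was not called. Fat markers were also called higher by edgeR in BCS against wild type. These were Pparg (1.24 ± 0.15, adjusted p 0.00462), Fabp4 (2.15 ± 0.29, adjusted p 0.0056) and Cebpa (2.47 ± 0.68, adjusted p 0.0383). Pparg was called higher in Ctr1-null against wild type too (1.37 ± 0.15, adjusted p from edgeR 0.0451). The pluripotency marker Nanog averaged 0.73, 0.79 and 0.85 CPM. The part of these markers in the results was not tested. In cultures such as these, fewer cells of a kind and less RNA per cell cannot be told apart.

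The start of the mRNA is shown first, since the pyrimidine tract lies there. RefSeq promoter windows (GRCm38.p6, 250 bases before to 50 after the annotated start) were at hand for 56 of the 76 genes, in 66 windows. A run of at least 8 consecutive C or T on the sense strand within 15 bases of the start was present in 39.4% of these windows, against 12.0% of all 32851 windows. The windows printed were taken from those that hold such a run; they span 15 bases on each side of the boundary between the upstream sequence and the first transcribed base, 5′ to 3′, with the pyrimidine run in capitals.
Rps6, chr4:86857353-86857382, minus strand: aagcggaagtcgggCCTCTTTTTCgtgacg
Rpl7a, chr2:26910792-26910821, plus strand: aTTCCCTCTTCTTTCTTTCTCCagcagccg
Rps10, chr17:27635230-27635259, minus strand: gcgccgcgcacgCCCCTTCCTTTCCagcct
Rplp2, chr7:141447636-141447665, plus strand: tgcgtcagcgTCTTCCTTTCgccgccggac
Rpl15, chr14:18270972-18271001, minus strand: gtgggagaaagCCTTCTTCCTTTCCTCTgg
Rps26, chr10:128626492-128626521, minus strand: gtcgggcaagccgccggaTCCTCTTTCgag
Rps27, chr3:90213634-90213663, minus strand: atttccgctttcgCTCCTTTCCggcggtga
Rpl39, chrX:37085208-37085237, minus strand: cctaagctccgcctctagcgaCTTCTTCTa
The runs in these windows were 8 to 21 bases long. In Rps6, Rps10 and Rps27 the run began 1 to 3 bases before the annotated start, whereas in Rps26 and Rpl39 it began 3 and 6 bases past it. Other short motifs were searched on both strands over the whole windows. CCGGAAG, the core bound by ETS factors, was in 36.4% of the windows of these genes and in 8.86% of all windows. Its reverse complement can share bases with a pyrimidine run, and no motif searched contains another. GGGCGG, the Sp1 box, was in 60.6% against 35.7%, and CACGTG, the E-box read by MYC, was in 12.1% against 7.15%. TATAAA was in 9.09% against 13.6%. A match describes the letters only and shows no binding.

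The reverse-transcribed copies bear on the values of some of these genes. The coding sequences of the 76 genes were aligned to all annotated transcripts, and rows matching at least 95% identical over at least 90% of the coding sequence were kept as near-identical copies. There were 505 such rows, 494 of them annotated as pseudogenes and 11 as protein coding, Rps12-ps3 among the latter, and 4 genes had none, Rpl8, Rplp2 and Rps3 among them. Together they held 14.2% of the counts of members and copies. The share was very uneven: 47 genes had 1% of their reads or less in copies, 25 had over 10%, 8 had over 50% and 4 had over 90%. Those 4 were Rps12 with 95.5%, Rpl12 with 92.4%, Rps27 with 92.3% and Rpl5 with 91.6%. Rpl27 followed with 88.7%, Rpl10 with 80.2%, Rpl27a with 66.9% and Rps23 with 65.7%.

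**Figure D1:**
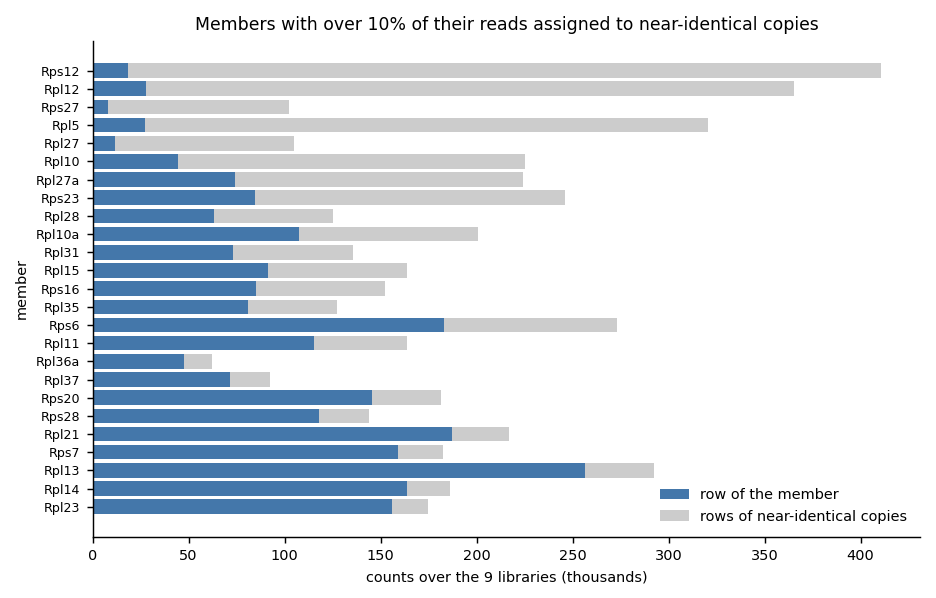
Counts summed over the 9 libraries for the 25 genes with over 10% of their reads in near-identical copies; blue is the row of the gene itself, grey the rows of its copies. For Rps12, Rpl12, Rps27 and Rpl5 the grey part holds over 90% of the bar.

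The sequences show how alike such rows are. The first 60 coding bases of Rps12 and of Rps12-ps3 (chr19:59322290-59322783) are printed because all 396 coding bases of the pair are identical and the copy held most of the reads. For Rpl11 and Gm10288 (chr3:146838811-146839347), coding bases 56 to 115 are printed with the single difference over 534 coding bases in capitals. It is G86A, counted from the A of the start codon, with the base of Rpl11 first. For Rpl10a and Rpl10a-ps1 (chr1:64993951-64994604) the first 60 bases are printed; the 2 differences over 648 coding bases, T2G and G3C in capitals, fall in the start codon.
Rps12: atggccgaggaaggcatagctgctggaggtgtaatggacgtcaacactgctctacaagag
Rps12-ps3: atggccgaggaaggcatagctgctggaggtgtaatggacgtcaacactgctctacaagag
Rpl11: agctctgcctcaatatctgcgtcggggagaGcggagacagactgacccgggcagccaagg
Gm10288: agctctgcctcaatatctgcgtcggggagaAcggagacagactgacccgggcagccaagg
Rpl10a: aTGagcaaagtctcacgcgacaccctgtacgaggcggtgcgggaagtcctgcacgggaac
Rpl10a-ps1: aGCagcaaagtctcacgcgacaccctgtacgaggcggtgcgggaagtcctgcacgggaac
A read that covers none of the differences cannot be assigned by sequence, and the deposited values are estimated counts that divide it between rows. Whether the copies are transcribed was not tested. Values are given for the gene's own row, and for the genes singled out below whose copies hold over 10% of reads, fold changes with the copies added follow. The spans of 24 of the 76 genes also overlap another annotated gene, 20 of them on the other strand, among them Rpl28 with Ube2s, Rps14 with Ndst1 and Rps25 with Trappc4; their values are uncertain to that extent, since strand-specific counting is not stated.

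Per kilobase of transcript, the levels in wild type cells had a median of 574 CPM per kb on the genes' own rows, with quartiles at 351 and 743. The highest were Rps2, which lines the mRNA entry channel, at 2450, Rpl41, the shortest of the ribosomal proteins, at 2273 and Rplp1, a stalk protein that calls in elongation factors, at 2117 CPM per kb. The lowest 3 on their own rows were Rpl5 at 29.7, Rpl12 at 50.4 and Rpl27 at 51.6, all of them genes with over 88% of reads in copies. With copies added these stood at 341, 665 and 416 CPM per kb, and Rps12 moved from 106 to 2023. The span between highest and lowest narrowed from 82.6-fold to 21.6-fold and the ratio of the upper to the lower quartile from 2.11 to 1.78. With copies added, the lowest value was 114 CPM per kb for Rps20, whose annotated principal transcript of 3706 bases is long for this family, so its value per length is uncertain.

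The 76 genes varied together from library to library, and their median spanned 0.39 on the log2 scale within wild type and 0.35 within Ctr1-null, more than it differed between any 2 groups. Each gene's log2(CPM + 0.5) was set against its own mean over the 9 libraries and the median of the 76 taken in each library. In wild type it was -0.17, 0.19 and 0.22. In Ctr1-null it was 0.14, -0.13 and -0.21. In Ctr1-null with BCS it was -0.03, -0.01 and -0.03. Wild type library 1 was the lowest of its group for 74 of the 76 genes, and Ctr1-null library 1 the highest of its group for 75. The BCS libraries lay between these extremes, with an SD of the medians of 0.01, against 0.22 in wild type and 0.18 in Ctr1-null (n = 3 each). The median over all tested genes stayed within -0.01 and 0.01 in every library.

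**Figure D2:**
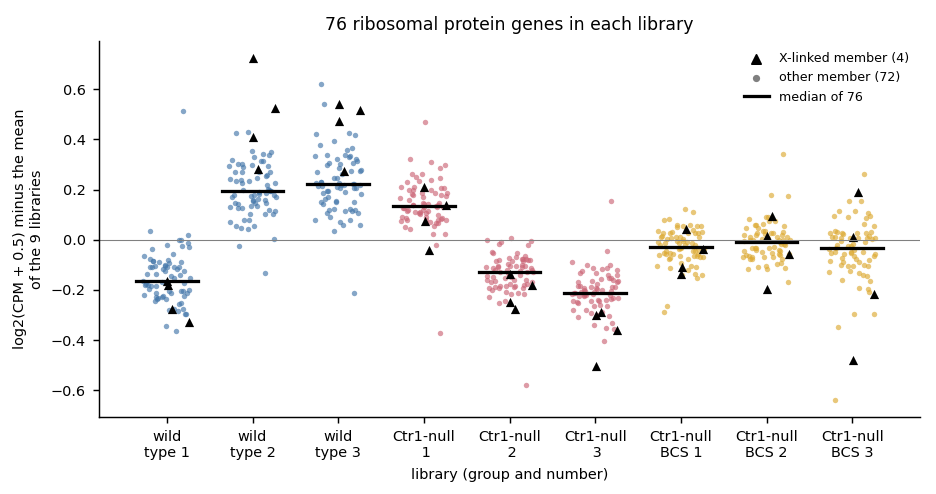
Deviation of each of the 76 genes from its mean over the 9 libraries, in log2(CPM + 0.5), by library; points are genes, triangles the 4 X-linked ones, bars the median of 76. Wild type 2, wild type 3 and Ctr1-null 1 sit above 0, wild type 1, Ctr1-null 2 and Ctr1-null 3 below it, and the 3 BCS libraries near it.

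As a share of all counts, the 76 genes took 2.99%, 3.67% and 3.72% in wild type, 3.64%, 3.13% and 2.97% in Ctr1-null and 3.43%, 3.49% and 3.40% in Ctr1-null with BCS. The means were 3.46% ± 0.41, 3.25% ± 0.35 and 3.44% ± 0.05 (SD, n = 3), so the ranges of the groups overlapped. The first principal component of the genes' values over the libraries held 78.4% of their variance, and 85.6% with copies added. The small subunit and the large subunit gave the same picture: in wild type library 1 their medians were -0.14 and -0.18, and in wild type library 3 both were 0.22. Other mRNAs with a pyrimidine tract, from a list of 20 that includes Eef1a1, Eef2 and Tpt1, had medians of -0.17, 0.26 and 0.28 in wild type, 0.15, -0.09 and -0.21 in Ctr1-null and -0.03, -0.08 and -0.10 with BCS. The part of any library property in this pattern was not tested.

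What was left after each library's median was taken off showed which genes went their own way. The SD of this remainder over the 9 libraries had a median of 0.08 on the log2 scale. It was largest for Rps27 at 0.43, Rps12 at 0.30, Rpl10 at 0.29 and Rpl27 at 0.20, each with over 80% of its reads in copies. Over the 8 genes with over 50% of reads in copies the median was 0.20, against 0.07 over the 47 with 1% or less. With copies added the median of these 8 was 0.08. Rpl10 at 0.24 and Rps4x at 0.19 then stood highest.

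Ctr1-null cells were compared with wild type cells first. No ribosomal protein gene passed an adjusted p of 0.05 in edgeR's quasi-likelihood test, where 0.0109% of all genes did, and DESeq2 and limma-voom also called 0. At an unadjusted p under 0.05 there were 4 (Rpl36a, Rps16, Rps26 and Rpl10a), against 17.6% of all genes. The log2 fold changes were below 0 for 69 of 76 genes, against 49.3% of all genes, with a median of -0.18, against 0.01 over all genes. The median was -0.19 for the small and -0.18 for the large subunit, and single genes ran from -0.51 to 0.11. The groups did not overlap for 0 genes in either direction, where 8.62% of all genes were separately lower and 9.49% separately higher.

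This comparison turned on which library was present. Without wild type library 1, 20 of the 76 genes were called lower, against 8.05% of all genes, and the median was -0.28. Without Ctr1-null library 1 the median was also -0.28 and all 76 fold changes were below 0, with 0 called. Rps26, a small-subunit protein at the mRNA exit channel, shows the pattern. It stood at 335, 461 and 488 CPM in wild type, 378, 334 and 307 in Ctr1-null and 338, 340 and 330 with BCS. Wild type library 1 lay inside the Ctr1-null range, and the other 2 wild type libraries lay above every other library. Its log2 fold change was -0.33 ± 0.14 (SE), with an adjusted p of 0.252 in edgeR, and -0.49 with an adjusted p of 0.00922 without wild type library 1.

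**Figure D3:**
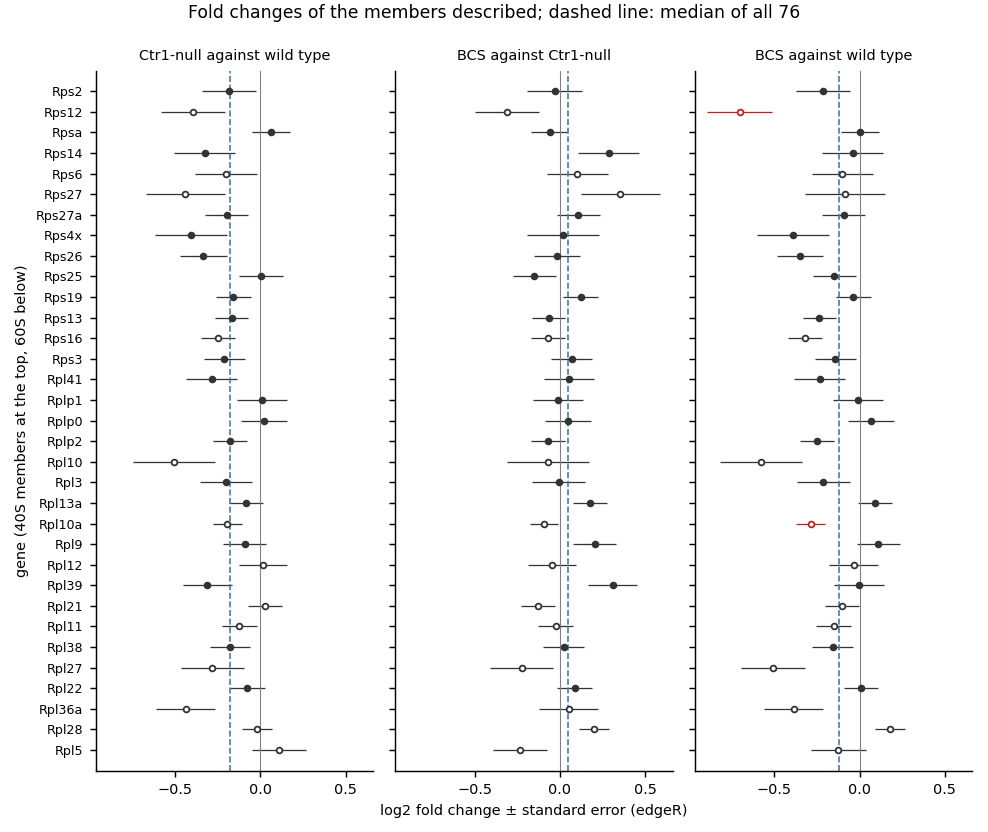
Log2 fold change ± standard error of the genes described in the text in the 3 comparisons, small subunit at the top and large subunit below, each by rising level per kilobase from bottom to top; open circles have over 10% of reads in copies, red marks an adjusted p under 0.05, the dashed line is the median of all 76. It lies at -0.18, 0.05 and -0.12, and the 2 red points are Rps12 and Rpl10a in BCS against wild type.

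The lowest fold changes in Ctr1-null against wild type were those of Rpl10 (-0.51 ± 0.24), Rps27 (-0.44 ± 0.23), Rpl36a (-0.44 ± 0.17) and Rps4x (-0.41 ± 0.21), with adjusted p from edgeR of 0.307, 0.353, 0.243 and 0.344. The highest were those of Rpl5 (0.11 ± 0.16), which carries 5S rRNA together with Rpl11, Rpsa (0.06 ± 0.11), Rpl21 (0.03 ± 0.10) and Rplp0 (0.02 ± 0.14), the base of the stalk. Rplp0 stood at 1702, 2081 and 2171 CPM in wild type, 2419, 1867 and 1752 in Ctr1-null and 2134, 2097 and 2006 with BCS. Its groups overlapped throughout, and the direction of each of these 4 turned without Ctr1-null library 1. With copies added, Rps27 stood at -0.22 ± 0.12, Rpl5 at 0.03 ± 0.12 and Rpl21 at 0.04 ± 0.10, so Rpsa was then highest, and Rpl10, Rpl36a, Rps4x and Rps26 were lowest.

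Rpl10, Rpl36a and Rps4x are on the X chromosome, as is Rpl39, and this was noticed after the values were seen. Rpl10 is one of the last proteins to join the 60S subunit, Rps4x is a core 40S protein, and Rpl39 lines the exit tunnel. They were ranked 1, 3, 4 and 9 from the lowest of 76 in Ctr1-null against wild type. Rps4x (ENSMUSG00000031320.9, GRCm38 chromosome X, 102184941 to 102189394) stood at 411, 742 and 738 CPM in wild type, 568, 455 and 402 in Ctr1-null and 502, 496 and 443 with BCS. Rpl36a (ENSMUSG00000079435.9, X, 134585654 to 134588062) stood at 92.6, 139 and 153 CPM, then 111, 88.1 and 85.0, then 97.2, 91.4 and 106. In both genes wild type libraries 2 and 3 were above all the others. With copies, which hold 23.8% of its reads, Rpl36a stood at -0.47 ± 0.17 (adjusted p from edgeR 0.205).

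Rpl10 (ENSMUSG00000008682.13, X, 74270812 to 74273135) with its copies stood at 424, 766 and 757 CPM in wild type, 482, 415 and 387 in Ctr1-null and 461, 455 and 435 with BCS. The row of its main copy, Rpl10-ps3 on chromosome 9, had 336, 603 and 619 CPM in wild type and 318 to 371 CPM in the other 6 libraries. The row of the copy thus had the same high pair of libraries as the X-linked genes. It matches the coding sequence of Rpl10 at 100% identity over 100% of its length. Reads from inside that stretch cannot be assigned to chromosome 9 or to the X chromosome by sequence. With copies added Rpl10 had a log2 fold change of -0.60 ± 0.20 (adjusted p from edgeR 0.179). Rpl39 (ENSMUSG00000079641.3, X, 37082520 to 37085402) stood at 281, 414 and 411 CPM in wild type, 331, 281 and 279 in Ctr1-null and 351, 364 and 389 with BCS. Its log2 fold change was -0.31 ± 0.14 in Ctr1-null against wild type (adjusted p from edgeR 0.298).

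Genes on the X chromosome outside this family showed a smaller shift in the same libraries. The median deviation of the 4 X-linked ribosomal protein genes was -0.23, 0.47 and 0.49 in wild type, against -0.15, 0.19 and 0.22 for the other 72. The 526 other X-linked genes had medians of -0.04, 0.19 and 0.16 in wild type and from -0.07 to -0.05 in each of the other 6 libraries. The 17765 other autosomal genes lay between -0.02 and 0.01 in all 9. Xist was at 0.3 CPM or less in every library, and the Y-linked Ddx3y and Eif2s3y were at 66.8 to 99.7 and 71.3 to 83.1 CPM. The part of the X chromosome in these values was not tested, and these 4 genes were picked out with their values in view.

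**Figure D4:**
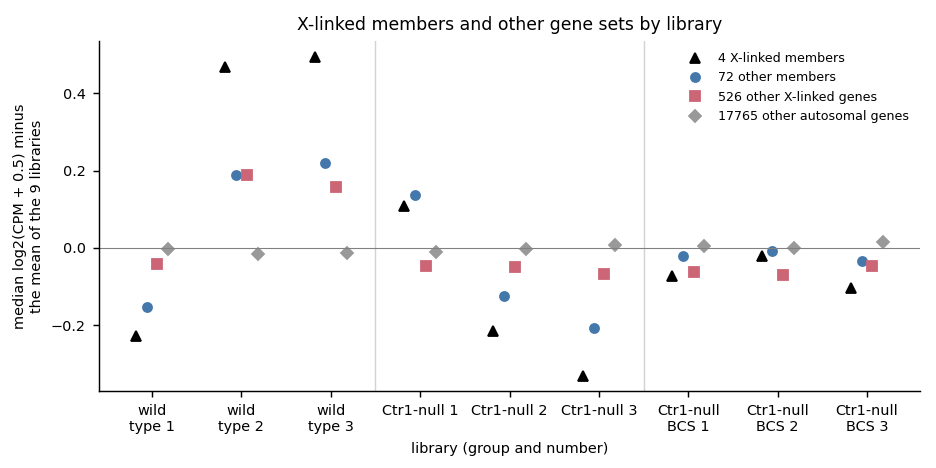
Median deviation from the mean of the 9 libraries, in log2(CPM + 0.5), for the 4 X-linked ribosomal protein genes, the 72 others, 526 other X-linked genes and 17765 other autosomal genes, by library. The triangles reach 0.47 and 0.49 in wild type 2 and wild type 3, and the grey diamonds stay within 0.02 of 0.

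BCS-treated Ctr1-null cells were then compared with untreated Ctr1-null cells, which asks what the chelator adds. No gene of the family was called by edgeR, where 0.0543% of all genes were, and DESeq2 and limma-voom called 0. At an unadjusted p under 0.05 there was 1, Rpl28, against 14.7% of all genes. The median log2 fold change was 0.05, against 0.0017 over all genes, with 49 genes above 0 and a range of -0.31 to 0.36. The median turned to -0.04 without Ctr1-null library 3 and rose to 0.15 without Ctr1-null library 1. The groups did not overlap for 3 genes, all higher with BCS (Rpl28, Rpl39 and Rps14), against 13.4% of all genes; 0 were separately lower, against 10.9%.

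Rpl39 had the smallest p of the genes with few reads in copies. Its 3 BCS libraries, at 351 to 389 CPM, were all above the 3 Ctr1-null libraries, at 279 to 331, and its log2 fold change was 0.31 ± 0.14 (adjusted p from edgeR 0.359). Rps14, which helps form the decoding platform, stood at 449, 381 and 334 CPM in Ctr1-null and 461, 465 and 493 with BCS, a difference of 0.29 ± 0.18 (adjusted p from edgeR 0.496). Its wild type libraries, at 343, 550 and 566 CPM, overlapped both groups. Rpl28 stood at 138, 133 and 130 CPM in Ctr1-null and 152, 140 and 168 with BCS, a difference of 0.20 ± 0.09 (adjusted p from edgeR 0.340), and 0.14 ± 0.09 with copies added. Rpl9 differed by 0.20 ± 0.13 (adjusted p from edgeR 0.489), with 500, 397 and 378 CPM in Ctr1-null and 493, 513 and 462 with BCS.

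The other extremes of this comparison were genes whose reads sit mostly in copies. Rps27 was highest at 0.36 ± 0.23, with 13.3, 11.5 and 19.3 CPM in Ctr1-null and 15.5, 22.1 and 18.7 CPM with BCS on its own row. With Rps27rt and its other copies it stood at 195 to 232 CPM and 233 to 246 CPM, a difference of 0.20 ± 0.12. Rps12 was lowest at -0.31 ± 0.19, then Rpl5 at -0.23 ± 0.16 and Rpl27 at -0.22 ± 0.19. With copies added these became -0.13, 0.05 and -0.04, so the sign of Rpl5 turned. Rps25 had few reads in copies and stood at -0.15 ± 0.13. Over the 8 genes with over 50% of reads in copies the SD of the fold changes narrowed from 0.21 to 0.10 once copies were added.

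BCS-treated Ctr1-null cells were also compared with wild type cells. In edgeR 2 genes of the family were called, Rps12 and Rpl10a, both lower with BCS, against 15.8% of all genes called and 7.28% called lower. At an unadjusted p under 0.05 there were 8, against 32.9% of all genes. The median log2 fold change was -0.12, against 0.01 over all genes, with 66 genes below 0 and a range of -0.70 to 0.18. The groups did not overlap for 6 genes, all lower with BCS, against 17.1% of all genes. None was separately higher, against 20.0% of all genes. Rpl10a, Rplp2, Rps12, Rps13 and Rps16 were among the 6. These shares of the 76 genes were below those of all genes. Without wild type library 1, 21 were called lower, against 15.3% of all genes, and the median was -0.23. This comparison and the first share the wild type libraries, so their values are not independent.

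Rps12 (ENSMUSG00000061983.7, chromosome 10, 23785183 to 23787275), a protein of the 40S head, stood on its own row at 41.1, 54.0 and 62.0 CPM in wild type, 47.1, 38.7 and 33.7 in Ctr1-null and 32.8, 38.1 and 25.6 with BCS. All BCS libraries were below all wild type libraries, and the Ctr1-null libraries overlapped both. The log2 fold change was -0.70 ± 0.19 (adjusted p from edgeR 0.0350). With its 16 copies Rps12 stood at 764, 1058 and 1176 CPM in wild type, 1114, 896 and 748 in Ctr1-null and 878, 873 and 766 with BCS, where the groups overlapped. The difference was then -0.25 ± 0.18 (adjusted p from edgeR 0.353), and the call was lost.

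Rpl10a (ENSMUSG00000037805.14, chromosome 17, 28328471 to 28331033), a protein of the L1 stalk where spent tRNA leaves, stood at 243, 271 and 290 CPM in wild type, 243, 239 and 220 in Ctr1-null and 217, 213 and 229 with BCS. The BCS libraries were all below the wild type libraries, and the Ctr1-null libraries overlapped both. The log2 fold change was -0.29 ± 0.08 (adjusted p from edgeR 0.0454). With the counts of Rpl10a-ps1 added, the BCS libraries at 388 to 419 CPM still lay below the wild type libraries at 425 to 550. The fold change was -0.29 ± 0.11 with an adjusted p from edgeR of 0.0944, so this call was lost as well. With copies added, 0 of the 76 genes were called in any comparison by edgeR, with 4, 0 and 6 at an unadjusted p under 0.05.

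Among the genes next in line, Rps16 was at 189, 226 and 234 CPM in wild type and 172, 178 and 171 with BCS, a difference of -0.32 ± 0.10 (adjusted p from edgeR 0.0579), and of -0.30 ± 0.09 with copies (adjusted p from edgeR 0.0588). Rplp2, the other stalk protein, has no copy, and stood at 324, 366 and 401 CPM in wild type and 308, 303 and 306 with BCS, a difference of -0.25 ± 0.10 (adjusted p from edgeR 0.115). Rps13 differed by -0.24 ± 0.10. Rpl10 at -0.58 ± 0.24, Rpl27 at -0.51 ± 0.19, Rps4x at -0.39 ± 0.21, Rpl36a at -0.39 ± 0.17 and Rps26 at -0.35 ± 0.14 were further from 0, but their BCS libraries overlapped wild type library 1. At the other end were Rpl28 at 0.18 ± 0.09, Rpl9 at 0.11 ± 0.13, Rpl13a at 0.09 ± 0.10 and Rplp0 at 0.07 ± 0.14. With copies added, Rpl27 stood at -0.20 ± 0.13, Rpl10 at -0.53 ± 0.20, Rpl36a at -0.44 ± 0.17 and Rpl28 at 0.14 ± 0.09.

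**Figure D5:**
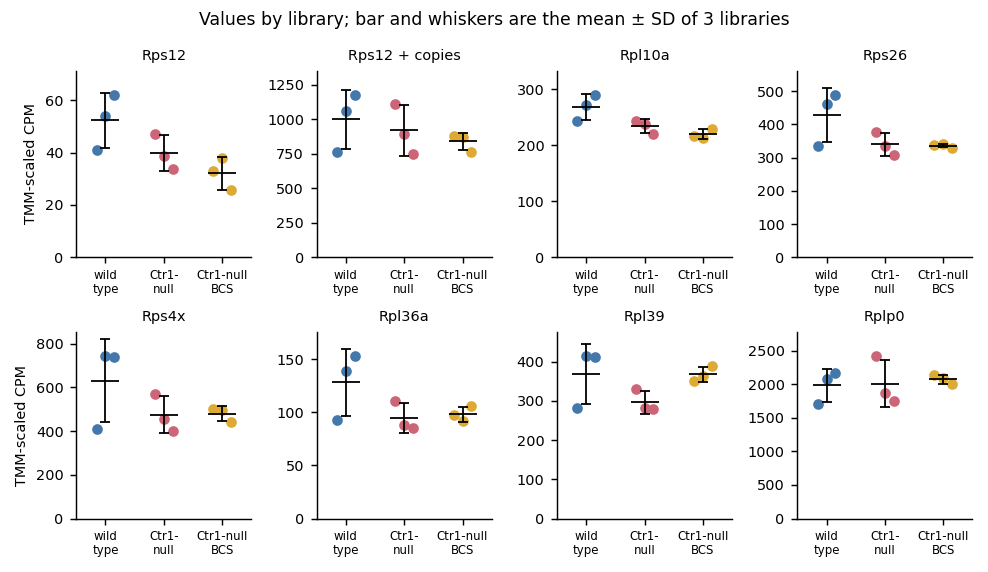
TMM-scaled CPM of 7 genes by group, with Rps12 also shown with its copies added; points are libraries, bars and whiskers the mean ± SD of 3, and every axis starts at 0. For Rps12 alone the BCS libraries lie below the wild type libraries, and with copies the groups overlap.

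Further members are given by role, first the small subunit. Rps2 ran from 1896 to 2769 CPM in wild type, from 1882 to 2554 in Ctr1-null and from 1974 to 2186 with BCS. Rps6, the substrate of S6 kinase, ran from 320 to 519, from 321 to 457 and from 391 to 432 CPM, and with copies from 514 to 724, from 508 to 687 and from 574 to 619. Rps3, which sits at the mRNA entry, had 426, 529 and 529 CPM, then 500, 391 and 390, then 440, 449 and 456. Rps19, mutated in Diamond-Blackfan anaemia, had 271, 338 and 321, then 313, 261 and 259, then 301, 307 and 299 CPM. The BCS libraries of Rps3, Rps6 and Rps19 all lay inside the wild type range. For Rps3 and Rps19, given here by library, this rested on the lowest wild type library, which is the library that stood apart. The other wild type libraries of Rps3 and Rps19 lay above every BCS library.

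Rps27a, made as a fusion with ubiquitin, ran from 340 to 438 CPM in wild type, from 314 to 411 in Ctr1-null and from 361 to 390 with BCS. Rpsa, a late-binding 40S protein also known as a laminin receptor, had 1656, 2022 and 2033 CPM, then 2231, 1923 and 1813, then 1972, 1869 and 1878. In the large subunit, Rpl3 at the peptidyl transferase centre ran from 781 to 1149, from 766 to 1018 and from 854 to 898 CPM. Rpl11, the partner of Rpl5 in binding MDM2, had 239, 284 and 301 CPM, then 279, 248 and 229, then 248, 246 and 248, and with copies 318 to 432, 318 to 396 and 356 to 367. In these 4 genes too the BCS libraries lay inside the wild type range. For Rpsa and Rpl11, given here by library, this again rested on the lowest wild type library. The other wild type libraries of Rpsa and Rpl11 lay above every BCS library.

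Rpl13a ran from 698 to 799 CPM in wild type, from 655 to 813 in Ctr1-null and from 788 to 843 with BCS. Rpl22, whose paralog is Rpl22l1, ran from 164 to 210, from 171 to 199 and from 188 to 201 CPM. Rpl38, known in mice for a role in body patterning, ran from 122 to 163, from 118 to 147 and from 129 to 134 CPM. Rpl41 ran from 773 to 1174, from 720 to 933 and from 825 to 871 CPM, and Rplp1 from 868 to 1164, from 911 to 1278 and from 992 to 1090 CPM. None of these genes was called in any of the 3 comparisons by edgeR.

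Some ribosomal protein genes fall outside the naming rule. Of 13 listed, 10 were tested, and Rpl39l was at 0 counts in every library, which allows up to 0.0546 to 0.0811 CPM, and Rpl3l and Rpl10l were at 0.109 CPM or less. The medians were -0.22 in Ctr1-null against wild type, 0.02 in BCS against Ctr1-null and -0.28 in BCS against wild type. In each edgeR called 0, where 0.0109%, 0.0543% and 15.8% of all genes were called. Without wild type library 1, 4 of the 10 were called lower in Ctr1-null against wild type, against 8.05% of all genes. In BCS against wild type 4 were then called lower too, against 15.3% of all genes. Rps3a1 stood at 606, 948 and 930 CPM in wild type, 762, 636 and 573 in Ctr1-null and 691, 707 and 653 with BCS. Fau, which encodes a 40S protein fused to a ubiquitin-like protein, differed by -0.28 ± 0.18 in BCS against wild type. Rack1, the kinase scaffold on the 40S head, differed by -0.04 ± 0.13. Among paralogs, the same difference was -0.28 ± 0.15 for Rpl7l1, -0.50 ± 0.26 for Rpl22l1, -0.26 ± 0.12 for Rpl36al, -0.39 ± 0.34 for Rps4l, 0.03 ± 0.09 for Rps27l and -0.01 ± 0.14 for Rps27rt.

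The other genes of the pathway are given from lists chosen with earlier results of these data known. With all 9 libraries, edgeR called 0 genes of the first 5 lists below in Ctr1-null against wild type and in BCS against Ctr1-null. With all libraries, calls in these 5 lists were all in BCS against wild type, where 7.28% of all genes were called lower. Of 20 mRNAs with a pyrimidine tract, 1 was called lower, Hnrnpa1 (-0.58 ± 0.15, adjusted p 0.0279), and the median was -0.17. Of 10 host genes of small nucleolar RNAs tested, 1 was called lower, Snhg1 (-0.70 ± 0.17, adjusted p 0.0228).

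Of 20 regulators in the mTORC1, LARP and MYC list, 3 were called lower. By p the first 2 were Rps6kb1, the kinase of Rps6 (-0.38 ± 0.07, adjusted p 0.00926), and Larp1b (-0.63 ± 0.13, adjusted p 0.0149). Of 16 chaperones and importins of ribosomal proteins, 2 were called lower, Ipo9 (-0.30 ± 0.07, adjusted p 0.0255) and Tnpo1 (-0.45 ± 0.13, adjusted p 0.0431), and the median was -0.34. Of 12 rescue and quality control factors, 2 were called lower, Gtpbp1 (-0.56 ± 0.13, adjusted p 0.0228) and Pelo (-0.38 ± 0.11, adjusted p 0.0427). None of these lists held a gene called higher by edgeR. Without wild type library 1 the counts called lower in the 5 lists were 11, 2, 4, 8 and 7 in BCS against wild type, against 15.3% of all genes. In Ctr1-null against wild type they were then 6, 1, 4, 3 and 5, against 8.05% of all genes.

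Of 4 genes of the MDM2 and p53 list, 2 were called higher in BCS against wild type, where 8.56% of all genes were, and 1 in BCS against Ctr1-null, where 0.0380% were. Without wild type library 1, 3 were called higher and 1 lower in BCS against wild type, where 15.3% of all genes were called lower. There were then 2 called higher in BCS against Ctr1-null and 0 called in Ctr1-null against wild type. Mdm2, the ubiquitin ligase that Rpl5 and Rpl11 bind and inhibit, stood at 283, 237 and 225 CPM in wild type, 226, 248 and 264 in Ctr1-null and 376, 413 and 371 with BCS. It was called higher in BCS against wild type (0.64 ± 0.10, adjusted p from edgeR 0.0076). Cdkn1a, a p53 target that stops the cell cycle, stood at 242 to 265, 214 to 242 and 395 to 440 CPM. It was called higher in BCS against wild type (0.70 ± 0.08, adjusted p from edgeR 0.0046) and against Ctr1-null (0.84 ± 0.08, adjusted p from edgeR 0.012). Rpl5 with copies stood at 617, 728 and 745 CPM in wild type, 852, 657 and 630 in Ctr1-null and 748, 719 and 750 with BCS, so the groups overlapped. Neither it nor Rpl11 was called, and no relation between them and Mdm2 was tested.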

How the data were processed

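Per the submitters' processing notes, FastQC, STAR, Salmon and DESeq2 were used with GRCm38; versions and roles are not given in the sources used here. The authors deposited estimated counts per gene, in whole numbers and not normalised. They also deposited a table of scaled signal values, from which their scaling was derived and tried as an alternative. Of 52661 rows, 52566 matched a symbol in GENCODE M21.

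Counts were filtered (filterByExpr, minimum count 10, minimum total 15), scaled by TMM and tested with the quasi-likelihood test of edgeR 4.0.16 (R 4.3.3) in 1 fit of 9 libraries; p-values are 2-sided and Benjamini-Hochberg adjusted over 18408 genes. A standard error is the log2 fold change over the square root of F. Copies were found with BLAST 2.17.0 on GENCODE M21 transcripts, the match covering at least 30% of the copy. Length is that of the shortest principal transcript. The fit was checked on counts simulated gene by gene for Ctr1-null against wild type. It called 78 of 100 genes changed 2-fold, 97 of 100 changed 4-fold and 12 of 17340 unchanged genes. Changes under 2-fold, as all those of the 76 genes were, were not simulated. A shift shared by many genes of a library, as the 76 genes showed, was not simulated either.

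The members and lists were chosen with earlier results of these data known. Named genes are the 4 highest and 4 lowest fold changes and called members of each comparison, members listed by role, the 3 highest and 3 lowest levels per kb, ribosomal proteins outside the naming rule (a few genes that these rules name are not reported here), up to 2 called genes per direction of each list, and Slc31a1. Rps13, Rps16, the residual spread of single genes and the X chromosome were picked after seeing values. Alternatives were other scalings and filters, DESeq2 1.42.0, limma-voom (limma 3.58.1), pairwise fits, a replicate block, named pseudogenes added and each library left out; near-identical copies and the authors' factors were added after seeing the data. Limits on a count of 0 use 3 counts and cover counting error only.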

Additional observations from a re-analysis of the deposited data

How the results depend on the processing

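The replicate numbers did not pair the libraries (correlations of same-numbered libraries from -0.32 to 0.28); with the replicate block, 0 of the 76 genes were called in BCS against wild type, against 2 in the reported fit. There the count was 1 with no filter, 1 with only the 2 groups fitted, 4 in DESeq2 and 0 with named pseudogenes, near-identical copies or the authors' factors. Leaving out 1 library gave 0 to 21 there, 0 to 20 in Ctr1-null against wild type and 0 in every case in BCS against Ctr1-null; the highest counts were without wild type library 1, and BCS against wild type had 4 without Ctr1-null library 1. The median in BCS against Ctr1-null then ran from -0.038 to 0.15. Under library size alone, the median of all genes in BCS against wild type moved to 0.11, and that of the 76 genes to -0.019.

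Of 35 fold changes of named genes under 21 alternatives, 11 values reversed. Leaving out 1 library in Ctr1-null against wild type gave -0.10 to 0.24 for Rpl5, -0.029 to 0.13 for Rpsa, -0.085 to 0.097 for Rpl21 and -0.13 to 0.11 for Rplp0. For Rplp0 in BCS against wild type it gave -0.040 to 0.14. With near-identical copies Rpl5 in BCS against Ctr1-null was 0.052, with named pseudogenes Rpl27 there was 0.048, and with the authors' factors Rpl28 in BCS against wild type was -0.0017. Rps12 and Rpl10a in BCS against wild type stayed below 0 under all 21, with adjusted p from edgeR, DESeq2 or limma of 0.0039 to 0.353 and 0.0063 to 0.183. The median standard error over the 76 genes was 0.13 in each comparison, and single genes lay on both sides of it.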
